A study of Mus musculus with 2 samples.

Results

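The TSC22 domain family of the mouse was described at 4 genes, Tsc22d1, Tsc22d2, Tsc22d3 and Tsc22d4, among 21887 protein-coding genes on the assembled chromosomes. The genes were named outright, and every ARID4B interval overlapping a gene record or lying within 50 kb of it was read from the authors' list. The family was chosen by its interval scores, with that at Tsc22d2 known to be among the highest of the list, so counts and scores are given as a description with no test. ARID4B, a subunit of the SIN3-histone deacetylase complex, was mapped by chromatin immunoprecipitation and sequencing (ChIP-seq) in wild type testes at postnatal day 1.5. The ChIP library came from a pool of 108 testes of hybrid C57BL6/J and 129/SvEv mice, and input DNA of the same genotype, age and tissue was the control. Each was a single library, and no value has a replicate. Whole testes were used, an interval list holds no expression by which the tissue could be checked, and no interval can be assigned to a cell type.

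TSC22 domain proteins share a short conserved segment, the TSC box, followed by a leucine zipper through which they pair with themselves and with each other. They lack a classical DNA-binding domain, and several of the genes give both long and short protein forms from different starts of transcription. Tsc22d1 was found as a transcript that TGF-beta induces in mouse osteoblast cells. Tsc22d2 transcripts respond to hypertonicity in mouse kidney cells, and long family members bind the pseudokinase NRBP1 and the kinases that control cell volume. Tsc22d3 encodes GILZ, the glucocorticoid-induced leucine zipper, and male mice without it lose spermatogonia and are sterile. Tsc22d4 encodes a partner of the other family members and has been linked to lipid metabolism in mouse liver.

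The list held 6632 intervals on the 19 autosomes and the X chromosome, with a median width of 1084 bp. Each carried a score given by the authors, read here as larger for stronger evidence, which no source used here states, with a median of 125.0, a lowest value of 70.02 and a highest of 1760.61. The depth of either library is unknown. Positions are on GRCm38, counting from 1.

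The starts of transcription that RefSeq gives for family members show where the intervals fell. A promoter window here is the 300 bp stretch from 250 bp before to 50 bp after a start, as tabulated by RefSeq on GRCm38.p6. The table gave 5 windows for Tsc22d1 and 3 for Tsc22d3. Tsc22d2 and Tsc22d4 had none there, and their ends are called lower and upper by coordinate. The first 3 sequences are from Tsc22d1, on the plus strand: the start at the beginning of the record, an inner start that no interval touched, and the innermost start, whose window an interval covered in full. The last pair are from Tsc22d3, on the minus strand: the start at the beginning of the record and the innermost one. Capitals mark matches on either strand to 6 short motifs.
Tsc22d1 first start, chr14:76414711-76415010: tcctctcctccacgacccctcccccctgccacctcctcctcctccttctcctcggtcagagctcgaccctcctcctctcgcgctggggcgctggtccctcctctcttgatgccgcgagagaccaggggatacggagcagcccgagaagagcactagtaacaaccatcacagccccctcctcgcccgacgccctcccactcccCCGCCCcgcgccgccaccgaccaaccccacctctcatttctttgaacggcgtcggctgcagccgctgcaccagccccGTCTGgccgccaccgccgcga
Tsc22d1 inner start without an interval, chr14:76488186-76488485: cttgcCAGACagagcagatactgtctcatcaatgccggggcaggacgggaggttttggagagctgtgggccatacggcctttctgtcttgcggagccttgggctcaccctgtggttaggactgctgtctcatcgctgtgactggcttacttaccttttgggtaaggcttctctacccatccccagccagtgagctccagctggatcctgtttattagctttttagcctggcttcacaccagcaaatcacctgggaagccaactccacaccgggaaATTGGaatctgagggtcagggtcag
Tsc22d1 innermost start, chr14:76504260-76504559: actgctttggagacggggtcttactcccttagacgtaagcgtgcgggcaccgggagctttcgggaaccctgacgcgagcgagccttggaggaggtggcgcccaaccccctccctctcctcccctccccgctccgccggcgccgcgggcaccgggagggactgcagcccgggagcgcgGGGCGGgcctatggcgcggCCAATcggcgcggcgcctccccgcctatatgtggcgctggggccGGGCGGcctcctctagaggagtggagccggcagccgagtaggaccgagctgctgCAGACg
Tsc22d3 first start, chrX:140600473-140600772: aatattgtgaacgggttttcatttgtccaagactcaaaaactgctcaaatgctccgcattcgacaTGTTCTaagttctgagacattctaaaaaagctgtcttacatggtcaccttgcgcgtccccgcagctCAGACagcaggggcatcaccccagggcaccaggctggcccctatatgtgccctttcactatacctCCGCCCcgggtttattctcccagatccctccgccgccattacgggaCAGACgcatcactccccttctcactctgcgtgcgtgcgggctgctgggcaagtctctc
Tsc22d3 innermost start, chrX:140542619-140542918: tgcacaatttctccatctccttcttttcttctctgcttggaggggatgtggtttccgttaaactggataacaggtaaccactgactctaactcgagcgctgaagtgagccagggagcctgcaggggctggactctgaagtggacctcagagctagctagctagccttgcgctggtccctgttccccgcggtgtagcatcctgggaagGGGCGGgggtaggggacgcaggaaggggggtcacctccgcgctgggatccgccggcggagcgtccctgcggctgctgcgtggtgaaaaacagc

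An ARID4B interval overlapped the record of 3 of the 4 family genes. Tsc22d2 had 1 interval of very high score, Tsc22d1 had 4 of low score, Tsc22d4 had 1 near the middle of the list and the X-linked Tsc22d3 had none. Across all protein-coding genes 30.7% had an interval in the record or within 1 kb, and nothing is read from the family's count, since the family was chosen with these values known. Of the 6 intervals that overlapped the family's records, 1, that of Tsc22d2, scored above the median of the list. Counted by gene, 1 of the 4 family genes had such an interval in the record or within 1 kb, against 16.7% of all protein-coding genes. With the reach widened to 50 kb, 3 of the 4 genes had an interval, against 52.3% of all protein-coding genes.

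**Figure D1:**
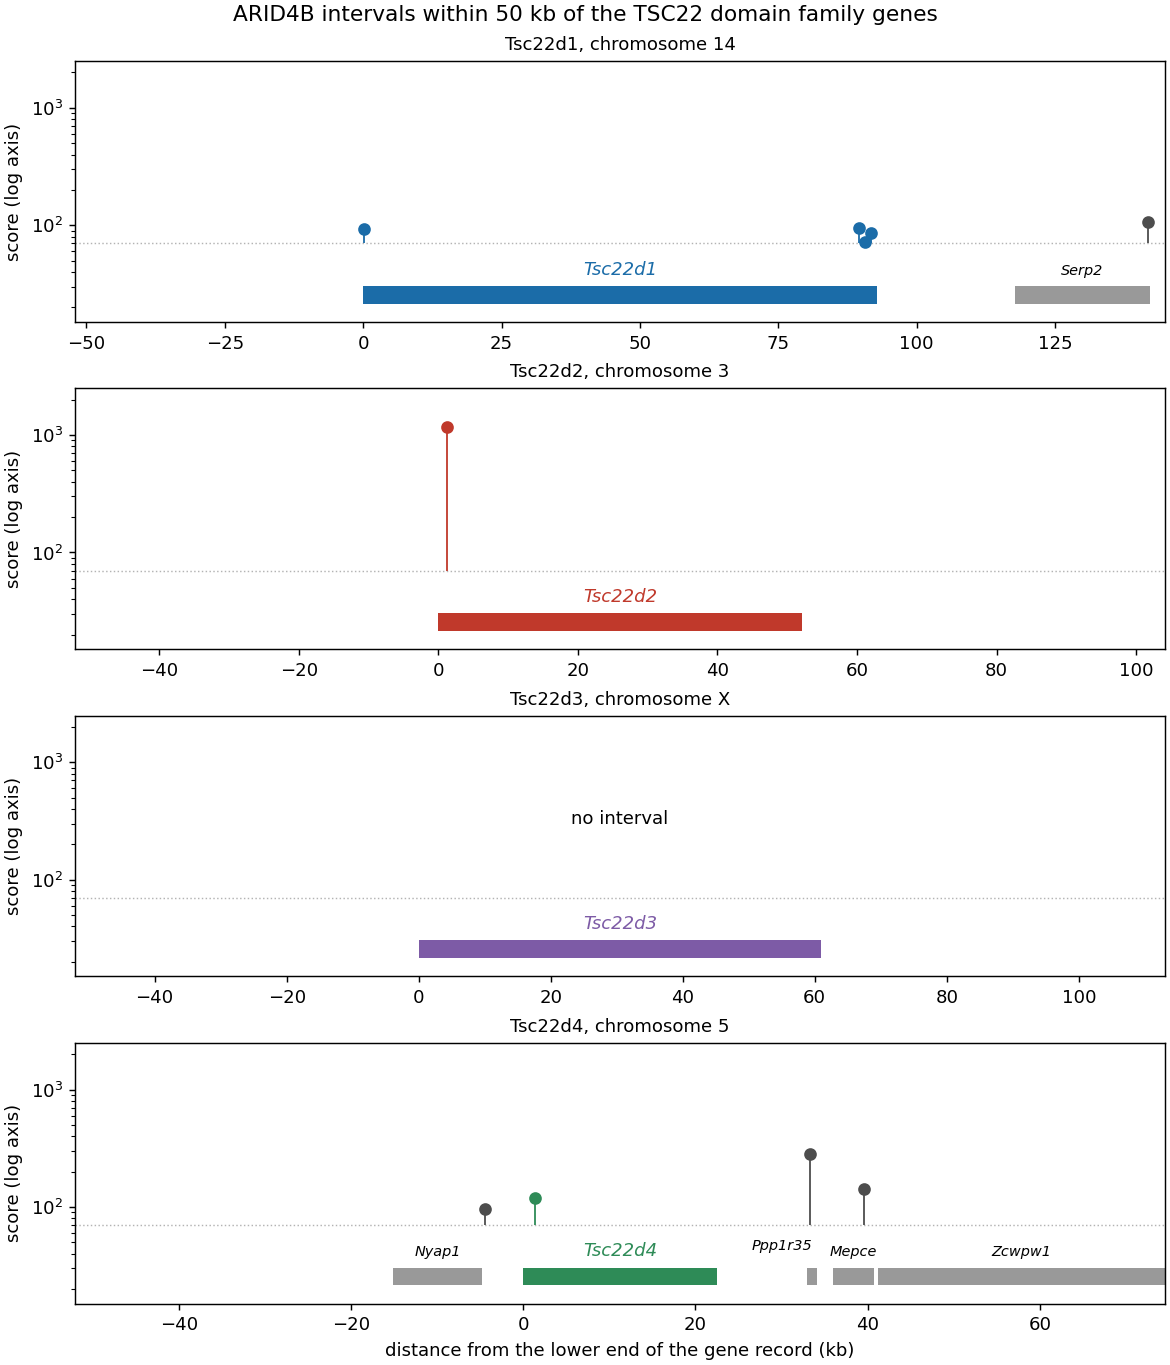
ARID4B intervals within 50 kb of each family gene. The x axis is the distance in kb from the lower end of the gene record and the y axis the score on a log scale, with a dotted line at the lowest score of the list (70.02); coloured points overlap the family gene's record (coloured bar), dark grey points do not, and grey bars are the other protein-coding records within 50 kb. Tsc22d2 had 1 point at 1160.13, Tsc22d1 had 4 between 72.44 and 95.02, and Tsc22d3 had none.

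Tsc22d2 carried one of the highest-scoring ARID4B intervals in the list. The record (chr3:58414702-58466787, 52.1 kb) had an interval at chr3:58414360-58417583 with a score of 1160.13, which ranked 8 of 6632 and first of the 281 on chromosome 3. It was 3224 bp wide, began 342 bp outside the lower end of the record and reached 2881 bp into it. No other interval lay within 50 kb, and there was no other protein-coding record within that distance. An interval at least as high lay in the record or within 1 kb of 10 protein-coding genes, Tsc22d2 included (0.0457%).

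The genes next to Tsc22d2 in score were Mex3b above it, an RNA-binding protein gene with 1245.12, and Irf2bpl below it, a relative of the corepressor genes Irf2bp1 and Irf2bp2, with 1131.25. The score differed from these by 84.99 and 28.88. Wide intervals tended to score high (Spearman's rho 0.61 across the 6632 intervals, which are not independent), and the Tsc22d2 interval stood high among those of its own width too. Of the 72 intervals within 20% of its width it ranked 2, where the median score was 433.65 and the range 72.0 to 1261.13. Per kb of width its score was 359.8, rank 30 of the list, against a median of 120.7 over all intervals.

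Tsc22d1 had 4 intervals overlapping one record (chr14:76414961-76507765, 92.8 kb), all scoring below the median of the list. The first, at chr14:76414726-76415365, was 640 bp wide and scored 92.72, rank 4949. The other 3 lay 88.6 kb further on, in a row near the far end of the record. They were at chr14:76503980-76505058 with a score of 95.02, at chr14:76505203-76506050 with 72.44 and at chr14:76506226-76507142 with 85.97. The best of the 4 was thus outscored by 72.6% of the list, and the lowest, rank 6424, by 96.8%.

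When width was taken into account, the first interval of Tsc22d1 no longer lay below the median. Its score per kb of width was 144.9, rank 2114 of the list, against the median of 120.7, and 31.9% of the list was higher. Among the 779 intervals of similar width it ranked 297, with 92.72 against a median of 86.18. The 3 intervals of the row stayed below the median per kb, with 88.1, 85.4 and 93.8.

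Intervals of Tsc22d1 covered starts in both of its outermost groups of starts, but not every interval or start was matched. The first interval covered the start at the beginning of the record, with its midpoint 84.5 bp past it, and stopped 206 bp short of the window of the next start, 860 bp into the record. The interval of 95.02 covered the pair of innermost starts, 89.3 and 89.5 kb into the record, and its midpoint was 9 bp past the last of them. The other pair of the row covered no annotated start and ran from 693 to 2632 bp past the last one. The start 73.5 kb into the record had no interval within 15.5 kb of its window. In all, 3 of the 5 windows of Tsc22d1 were overlapped, against 17.5% of the 32851 windows in the table. The windows of the innermost pair of starts overlap each other and share the interval of 95.02, so they are not separate hits. Over the 5734 windows that an interval overlapped, the midpoint of the interval lay a median of 157.5 bp past the start (quartiles -69.5 and 307 bp, a negative value lying before the start).

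**Figure D2:**
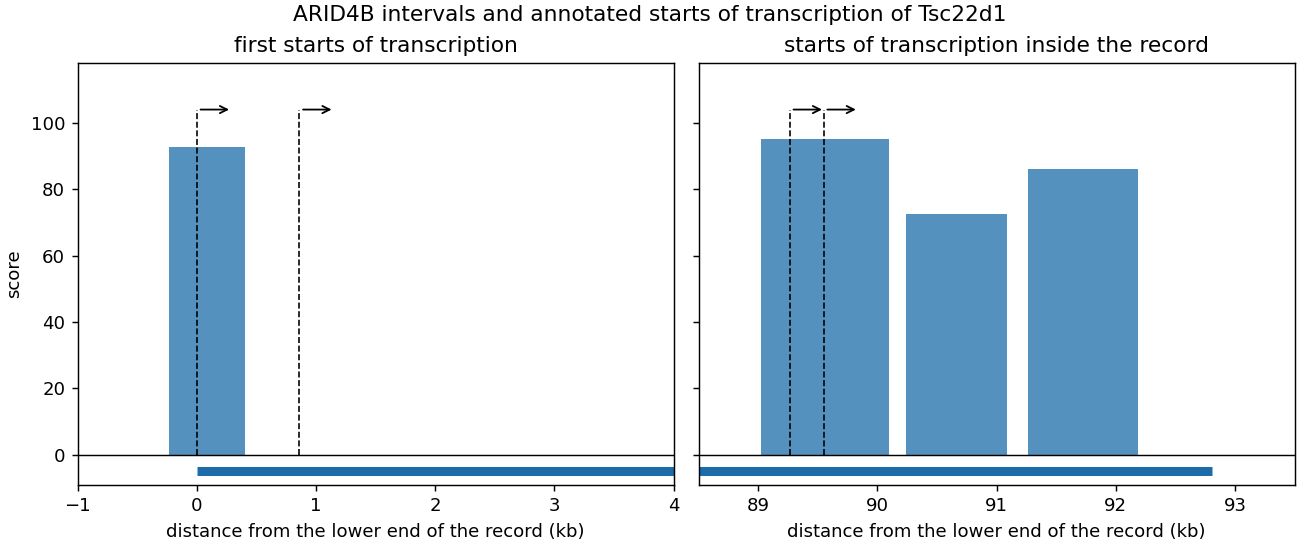
The 4 ARID4B intervals of the Tsc22d1 record beside annotated starts of transcription. The x axis is the distance in kb from the beginning of the record, in 2 stretches drawn to the same scale, the y axis the score; bars span each interval's width, dashed lines with arrows are starts and the line under the bars is the record. The interval of 92.72 covers the first start, and the row of 3 begins at the innermost pair of starts.

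The row of 3 in Tsc22d1 was closely packed. Its members were 144 and 175 bp apart, and together they spanned 3163 bp, near the 3224 bp of the single interval at Tsc22d2, with 2844 bp of the span covered. In the whole list 15 intervals (0.226%) stood in rows of 3 or more with gaps of at most 200 bp, in 5 rows. Records with 4 or more intervals were also few, 16 genes of 21887 (0.0731%), and 2 of the 1281 genes whose record is within 20% of the length of Tsc22d1 (0.156%). The count of 4 at Tsc22d1 depends on the 3 of the row being listed apart, despite gaps of 144 and 175 bp. Among these 16 genes the best score in the record was lowest at Tsc22d1. The next lowest was 108.0 at Atp5d, an ATP synthase subunit gene, and the highest 848.37 at Tnrc18. The gap of 200 bp, the count of 4 and the genes named here were chosen after their values were seen. The genes next to Tsc22d1 in best score were Hbp1, Hmgb3 and Prkag1 at 95.03 above it and Bid, Mccc1, Shcbp1l and Sox5 at 94.99 below it.

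**Figure D3:**
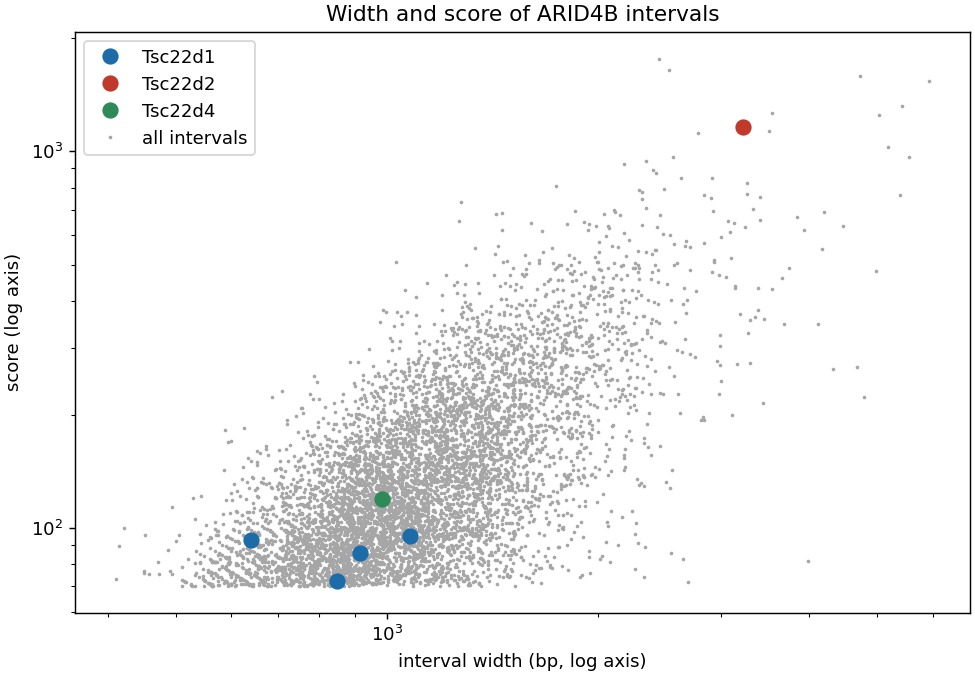
Width and score of all 6632 ARID4B intervals, with those overlapping the records of family genes in colour. The x axis is the width in bp and the y axis the score, both on log scales; each point is 1 interval. The Tsc22d2 interval (3224 bp, 1160.13) lies at the upper right, and the 4 of Tsc22d1 and the 1 of Tsc22d4 lie below the median score of 125.0.

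Tsc22d4 had an interval of its own near the middle of the list, with higher-scoring ones at Ppp1r35 and Mepce nearby. The record (chr5:137745969-137768453, 22.5 kb) held an interval at chr5:137746889-137747873, 920 bp from its lower end, with a score of 119.61, rank 3520. It was outscored by 53.1% of the list, and the median of the intervals of similar width was 111.2. Per kb of width its score was 121.4, close to the median of 120.7. Next in best score were Actl6a and Pomgnt1 at 119.68 and Csrnp2, Dedd2 and Zfp526 at 119.6.

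A further 3 intervals lay within 50 kb of Tsc22d4, and each was within 1 kb of another protein-coding record. The highest, 280.22 at chr5:137778511-137780061, was at Ppp1r35, a gene of centriole assembly, and covered the start of that gene, 10.1 kb from the Tsc22d4 record. The interval at chr5:137784843-137786141 (142.36) was inside Mepce, which encodes the enzyme that caps 7SK RNA. The third, at chr5:137741012-137742035 (96.18), covered a start of Nyap1, an adaptor of phosphoinositide 3-kinase signalling in neurons, 3.9 kb from Tsc22d4. Zcwpw1, a histone methylation reader of meiosis, was the fourth neighbour and had no interval in its record or within 1 kb. Its record begins at chr5:137787157, so the interval inside Mepce lay just beyond that limit. Of all protein-coding genes 5.9% had 4 or more intervals in the record or within 50 kb, as Tsc22d4 and Tsc22d1 did.

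The fifth interval within reach of Tsc22d1 was also at a neighbour. It lay at chr14:76556306-76557255, 48.5 kb beyond the record and so just inside the limit of 50 kb, scored 107.02 and covered the starts of Serp2, an endoplasmic reticulum stress protein gene. It outscored all 4 intervals overlapping the Tsc22d1 record. The interval nearest to Tsc22d2 beyond its own lay 58.2 kb away, just outside that limit, with 173.78.

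Tsc22d3 had no ARID4B interval in its record (chrX:140539528-140600522) or within 50 kb. The nearest ones on the X chromosome lay 36.3 Mb below it (score 72.58) and 11.2 Mb above it (79.0). The 47.6 Mb between these was the largest stretch without an interval among the 28 between intervals on the X chromosome, and held 217 protein-coding records. The next largest was 16.4 Mb. None of the 3 windows of Tsc22d3 was overlapped.

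Few X-linked genes had an interval at all. The X chromosome held 29 of the 6632 intervals, with a median score of 92.18 and a highest of 288.04. An interval in the record or within 1 kb was found at 29 of 966 X-linked genes (3.0%), one within 50 kb at 5.59%, and 1.55% of the 1223 X-linked promoter windows were overlapped. Male cells carry a single X chromosome, and its part in the absence at Tsc22d3 was not tested. At unknown depth, the absence from the list does not show that ARID4B is absent from the gene.

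The windows also differed in base composition. CG dinucleotides numbered a median of 26 in the windows that an interval overlapped and 5 in the others, as a description over windows that can overlap each other. In Tsc22d1 the overlapped windows had 27, 11 and 35, and the windows without an interval 31 and 6. The window with 31 is the one that the first interval missed by 206 bp. In Tsc22d3 the windows had 15, 3 and 16. In the class of 8 to 20 CG dinucleotides, which holds the higher pair of these, 19.5% of all windows were overlapped, but 2.74% of the 401 such windows on the X chromosome. In the class of 21 or more the share was 50.3% overall and 4.49% of 178 on the X chromosome.

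**Figure D4:**
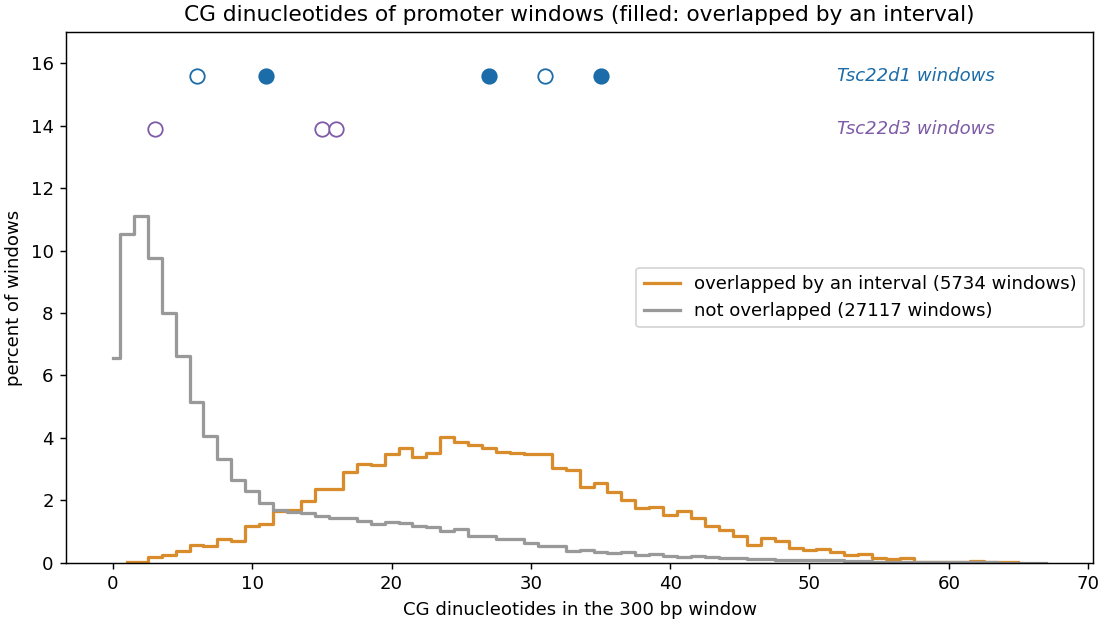
CG dinucleotides in promoter windows with and without an ARID4B interval. The x axis is the number of CG dinucleotides in the 300 bp window and the y axis the percent of windows in each class; circles mark the windows of Tsc22d1 and Tsc22d3 at their counts (their height has no meaning), filled where an interval overlaps. The overlapped windows have a median of 26 and the others of 5, and the 3 filled circles of Tsc22d1 lie at 11, 27 and 35.

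The motifs searched on both strands were GGGCGG, the GC box, present in 35.7% of all windows, CCAAT (37.4%), TATAAA (13.6%), AGAACA, letters found in glucocorticoid receptor sites (19.0%), CAGAC, found in Smad sites (49.6%), and CACGTG, the E-box (7.15%). AGAACA and CAGAC can share letters. The first window of Tsc22d1 held GGGCGG at 1 place and CAGAC at 1, and its innermost window held GGGCGG at 2, CCAAT at 1 and CAGAC at 1. In the windows that an interval overlapped the shares were 75.5% for GGGCGG, 34.0% for CCAAT, 5.13% for TATAAA, 8.77% for AGAACA, 44.1% for CAGAC and 11.9% for CACGTG. The first window of Tsc22d3 held GGGCGG at 1 place, AGAACA at 1 and CAGAC at 2, and its innermost window held GGGCGG at 1. The printed inner window of Tsc22d1 without an interval held CCAAT at 1 place and CAGAC at 1. Among windows not printed, that of Tsc22d1 860 bp into the record held the GC box at 2 places, TATAAA at 1 and the E-box at 1. No interval overlapped that window. The Tsc22d1 window 89.3 kb into the record, overlapped by the interval of 95.02, held CCAAT at 1 place, AGAACA at 1 and CAGAC at 1. The middle window of Tsc22d3 held none of the 6 motifs. A match is a description of letters, not of binding.

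Intervals in the record or within 1 kb were counted for 3 lists of genes. These hold genes of the NRBP proteins and of cell volume control, the glucocorticoid receptor with genes it induces, and genes of TGF-beta signalling. The lists were chosen with earlier results of these data known, so nothing is read from their counts or median scores. Of all protein-coding genes 30.7% had an interval, and the median of their best scores was 131.8. Of 12 genes of the NRBP proteins and of cell volume control, 8 had an interval, with a median best score of 150.9. Wnk1, the kinase at the head of that pathway, had 498.96 (rank 116) and the pseudokinase gene Nrbp2 had 307.41. Nrbp1 had 123.26. The kinases that WNK proteins activate, Stk39 and Oxsr1, had 194.93 and 122.73, and their scaffold Cab39 had 161.04. The chloride cotransporter genes they control, Slc12a7 and Slc12a2, had 140.68 and 103.08. Wnk2, Wnk3, Wnk4 and Cab39l had none, and Wnk3 is X-linked like Tsc22d3.

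Of 13 genes made up of the glucocorticoid receptor and genes it induces, 9 had an interval, with a median best score of 153.35. The highest was 391.23 at Klf9, a zinc finger factor gene, and the next 301.2 at Cebpd, whose interval was shared with Spidr. The receptor gene Nr3c1 had 3 intervals, the best with 165.29, and the kinase gene Sgk1 had 2, the better with 215.81. Nfkbia, an inhibitor of NF-kappaB, had 153.35, and the phosphatase gene Dusp1 had 139.13. Errfi1, a feedback inhibitor of the EGF receptor, had 114.84, the clock gene Per1 had 103.16, and the receptor's chaperone gene Fkbp5 had 84.62. Zbtb16, Mt1, Mt2 and Ddit4 had none, and neither had Tsc22d3.

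Of 11 genes for TGF-beta ligands, receptors and Smads, 8 had an interval, with a median best score of 212.4. The inhibitory Smad genes stood highest, Smad7 with 848.3 (rank 19) and Smad6 with 771.97 (rank 25). The receptor genes Tgfbr1, Tgfbr2 and Tgfbr3 had 222.91, 203.07 and 121.57. The signal-transducing Smad3 had 221.73, and the ligand genes Tgfb2 and Tgfb1 had 197.69 and 104.95, the interval of Tgfb1 being shared with B9d2. Tgfb3, Smad2 and Smad4 had none. The best scores of Tsc22d1 and Tsc22d4, 95.02 and 119.61, lay below the median of each of the 3 lists, and that of Tsc22d2, 1160.13, above the highest score in any of them. Nothing is read from the place of Tsc22d2, since the family was chosen with that score known.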

How the data were processed

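A list of enriched intervals with a score for each was deposited by the authors for the ChIP library. The submitters' processing notes name BWA, MACS and the build mm9. The sources used here give no versions, parameters, filters or scale of the score, whose values all exceed 1. The deposited list is named for mm10. In place, 80.3% of intervals lay within 1 kb of an end of a protein-coding record of RefSeq on GRCm38.p6, and 12.9 or 13.3% after shifts of 5 kb, so the list was read as GRCm38. Read depth is unknown, so no floor could be set. Scores were used within this list only.

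Overlaps of at least 1 bp with gene records, with 1 kb and 50 kb reaches, and with RefSeq promoter windows were computed with Python 3.11.15, pandas 2.3.3 and numpy 2.4.6, and checked on simulated intervals. Promoter windows were tabulated for 27025 genes. No test was made. The members and lists were chosen with earlier results of these data known. Named genes were the members, protein-coding neighbours within 50 kb, the genes next in best score and the list genes. A further gene of 1 list is not reported here. Others are marked as chosen after their values were seen. The alternatives varied the reach, overlap, score limit and ranking.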

Additional observations from a re-analysis of the deposited data

How the results depend on the processing

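No paired analysis was possible because there was 1 ChIP library and 1 input library. Of 45 alternatives 23 left the count within 1.5 times its value, the best interval as it was, or the share within its 95% Clopper-Pearson interval, and 22 did not. In these, other intervals or genes were counted or, per kb of width, the ranking measure changed. Tsc22d4 had 2 intervals with a reach of 10 kb, and 2 when only scores above the median counted, in place of 4. Tsc22d1 had 0 above the median, and Tsc22d2 had 2 within 100 kb. Tsc22d3 had 0 under the 4 alternatives run for it. They could give nothing else, since the nearest interval lay 11.2 Mb away, yet they are among the 23. The best interval within 50 kb of Tsc22d1 (107.02), which was at Serp2, was outscored by 61.7% of the list. This share was 72.6% in the record or within 1 kb (95.02), 57.6% per kb of width (31.9% for the first interval of the Tsc22d1 record), 56.9% on its chromosome and 51.7% among similar widths. For Tsc22d4 the best interval within 50 kb (280.22, 9.86%) was at Ppp1r35. The share became 53.1% in the record or within 1 kb (119.61), 15.2% per kb of width and 18.1% among similar widths. For Tsc22d2 (0.106%) it was 0.437% per kb of width, 0% on its chromosome and 1.39% among similar widths. The background of 52.3% became 36.6% within 10 kb, 30.7% within 1 kb, 27.1% at record ends, 34.0% above the median score and 55.2% on autosomes. The list of NRBP and cell volume genes had 5 of 12 above the median, against 16.7% of all protein-coding genes. Nothing is read from this count, since the list was chosen with earlier results known. Depth, and so the weakest detectable interval, is unknown.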

Other observations

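The neighbours of Tsc22d1 and Tsc22d2 are themselves relatives. Serp2 lies 25047 bp from Tsc22d1 and Serp1 lies 55182 bp from Tsc22d2, and both encode small endoplasmic reticulum proteins of one family. Each had 1 ARID4B interval over an annotated start, with 107.02 at Serp2 and 173.78 at Serp1. The Serp1 interval (chr3:58524990-58526209) also covered the start of Eif2a, a translation initiation factor gene that runs the other way. Tsc22d1 and Tsc22d2 thus each had a SERP neighbour with an interval, and no SERP gene lay within 100 kb of Tsc22d3 or Tsc22d4. Of all protein-coding genes 30.7% had an interval in the record or within 1 kb. Nothing is read from the pair beside that share, since Serp1 was named after its value was seen. The order of the SERP scores was that of their TSC22 neighbours, but over 2 pairs nothing is read from it. Serp1 and Eif2a lie beyond the reach of 50 kb and were named after their values were seen.

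The closely packed row of 3 intervals in Tsc22d1 had few counterparts. Rows of 3 or more with gaps of at most 200 bp lay inside 4 protein-coding records, Cdk6, Smad7, Tsc22d1 and Ubtf, named after their values were seen. Smad7, an inhibitor of TGF-beta signalling, had 5 intervals overlapping its record and a best score of 848.3, against 4 and 95.02 at Tsc22d1. Allowing gaps of up to 1000 bp gave 24 rows of 3 or more in the list.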
